A study of Mus musculus with 16 samples.

Results

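Cells sorted as Thy_6C3 from mouse femurs gave 2 of the 16 mitochondrial DNA libraries of this study, replicates 1 and 2, and they were chosen by their label. Each was set against the Thy library and the 6C3 library of its own replicate number, so that 6 libraries entered the comparison. All 3 groups came from 3-month-old mice of the strain PolG D257A/D257A, and none had wild-type PolG. Femurs were digested mechanically and with enzymes, cell subsets were isolated by FACS, and ATAC-seq libraries were made from Tn5-cut DNA and sequenced on a NovaSeq6000 as read pairs of 100 bp. The labels describe every library as skeletal cells from femur. Neither the sorting gates nor the mice behind a library are given. The p-values below therefore reflect differences between libraries that could be purely technical. Thy (CD90, the product of Thy1) and 6C3 (the product of Enpep) are surface markers used to part stromal cells of bone, and counts of mitochondrial bases measure neither gene, so the label could not be checked against its markers.

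PolG copies mitochondrial DNA. The D257A change disables its proofreading activity, and cells that carry it gather point mutations in mitochondrial DNA. A cell holds many copies of this DNA, so a mutation is present in a fraction of copies, a state called heteroplasmy, and the fraction can drift as copies are passed to daughter cells. Cells that share an ancestor can share such alleles.

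Alleles are named by reference base, position (from 1, GRCm38 mitochondrial sequence) and altered base. Its allele fraction is the count of that base divided by the coverage of the position, and an allele is called present in a library at 1% or more with at least 5 counts. The following 21-base stretches are on the reference strand, 5′ to 3′, with the altered base in capitals. The first 4 surround alleles that were lower in Thy_6C3 than in both Thy and 6C3 in both replicates, at chrM:13952-13972 in ND6, chrM:10953-10973 in ND4, chrM:1075-1095 in the valine tRNA gene TrnV and chrM:9958-9978 in ND4L.
A13962G: caaccaacaaAcccactaaca
T10963C: cttctctcccTatgaggaata
A1085G: tgaccaatgaAcactctgaac
T9968C: tccacattacTatgcctggaa

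The next 4 surround alleles that were higher in Thy_6C3 than in both in both replicates, at chrM:1657-1677 in mt-Rnr2, which encodes the large ribosomal RNA, chrM:3873-3893 in the methionine tRNA gene TrnM, chrM:9000-9020 in COX3 and chrM:8510-8530 in ATP6.
C1667T: tcaattaattCcataatttac
G3883A: cccataccccGaaaacgttgg
C9010T: cttaatacttCagtacttcta
A8520T: ttttacttctActcacaattc

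The last 4 are further alleles that stood out in 1 Thy_6C3 library: A1676T in mt-Rnr2 at chrM:1666-1686, where, as in A8520T, the altered A lies between T and C, and C7913T in ATP8 at chrM:7903-7923, G5171A between the tRNA genes TrnN and TrnC at chrM:5161-5181, and C10210T in ND4 at chrM:10200-10220.
A1676T: tccataatttAcaccaacttc
C7913T: agtaaaaaccCcttgagaatt
G5171A: ttctaccgccGaaaaaaaaaa
C10210T: ctaccactaaCctgactatca

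The Thy_6C3 libraries were read at a mean coverage of 20452 counts per position in replicate 1 and 14843 in replicate 2. Thy had 28920 and 19598, and 6C3 30165 and 30188, so Thy_6C3 was the shallowest of the 3 within each replicate number. The difference from the mean of Thy and 6C3 was -0.62 on the log2 scale (two-sided exact permutation test within replicate numbers, p = 0.111, the smallest that its 9 arrangements allow, adjusted p = 0.667 over 6 measures). At these depths a count of 0 still allows a fraction of up to 0.0147% and 0.0202% in the 2 Thy_6C3 libraries, taken as 3 counts of the mean coverage, for counting error only. Thy replicate 2 stands apart from every other library: its A>C and T>G alleles numbered 2178 at 1% or more, against 13 to 19 in the other 5 libraries compared here. Its A>T, T>A, C>A and G>T fractions were also raised, so leaving out A>C and T>G does not bring it back to the level of the others, and results against Thy are therefore read in replicate 1 and replicate 2 separately.

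The mutation load, which adds up the 3 non-reference fractions at a position and averages over positions, was nearly the same in both Thy_6C3 libraries, at 0.453% and 0.455%. It was 0.456% and 1.11% in Thy and 0.484% and 0.457% in 6C3. Without A>C and T>G the loads were 0.394% and 0.398% in Thy_6C3, 0.391% and 0.658% in Thy, and 0.425% and 0.400% in 6C3. Thy_6C3 was below 6C3 in both replicates by this measure, by no more than 0.0312 percentage points, and above Thy in replicate 1 only. The difference from the mean of Thy and 6C3, -0.0727 percentage points, had an exact permutation p of 0.667 (two-sided, adjusted p = 1). It was -0.00814 without Thy replicate 2, -0.0139 without Thy_6C3 replicate 2, -0.131 without Thy_6C3 replicate 1 and -0.137 without 6C3 replicate 2.

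Thy_6C3 differed most from 6C3 in A>G and T>C, the transitions that replace A-T pairs with G-C pairs. The mean fraction of these changes over all A and T positions was 13.4 per 10000 in Thy_6C3 replicate 1 and 13.6 in replicate 2. In 6C3 it was 26.3 and 21.6, and in Thy 13.0 and 17.4. Both Thy_6C3 libraries were thus below both 6C3 libraries, with differences of -13.0 and -8.0 per 10000 within a number, while Thy_6C3 was level with Thy in replicate 1 and below it in replicate 2. Thy_6C3 was also below all 5 other subsets of its number, which ran from 13.8 to 21.8 per 10000, but the lower end of that range lay close to it. The load of all transitions was 0.130% and 0.131% in Thy_6C3, near the median of 0.130% in the other 10 libraries (range 0.129% to 0.181%). In 6C3 this load was 0.208% and 0.176%. The 2 changes moved together: A>G alone stood at 11.9 and 11.8 in Thy_6C3 against 21.6 and 17.8 in 6C3, and T>C alone at 15.1 and 15.8 against 32.1 and 26.1. Against the mean of Thy and 6C3 the difference was -6.11 per 10000 (two-sided exact permutation p = 0.444, adjusted p = 1 over 6 pairs of changes), a test that cannot go below 0.111. It ran from -2.78 without 6C3 replicate 1 to -9.44 without Thy replicate 1. Coverage moved with this difference, since 6C3 was deeper than Thy_6C3. After every library was thinned to the mean coverage of the shallowest, the values were 13.3 and 13.6 in Thy_6C3 and 26.3 and 21.6 in 6C3. Thinning leaves a mean fraction unchanged on average, so a part of coverage in this difference was not tested.

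**Figure D1:**
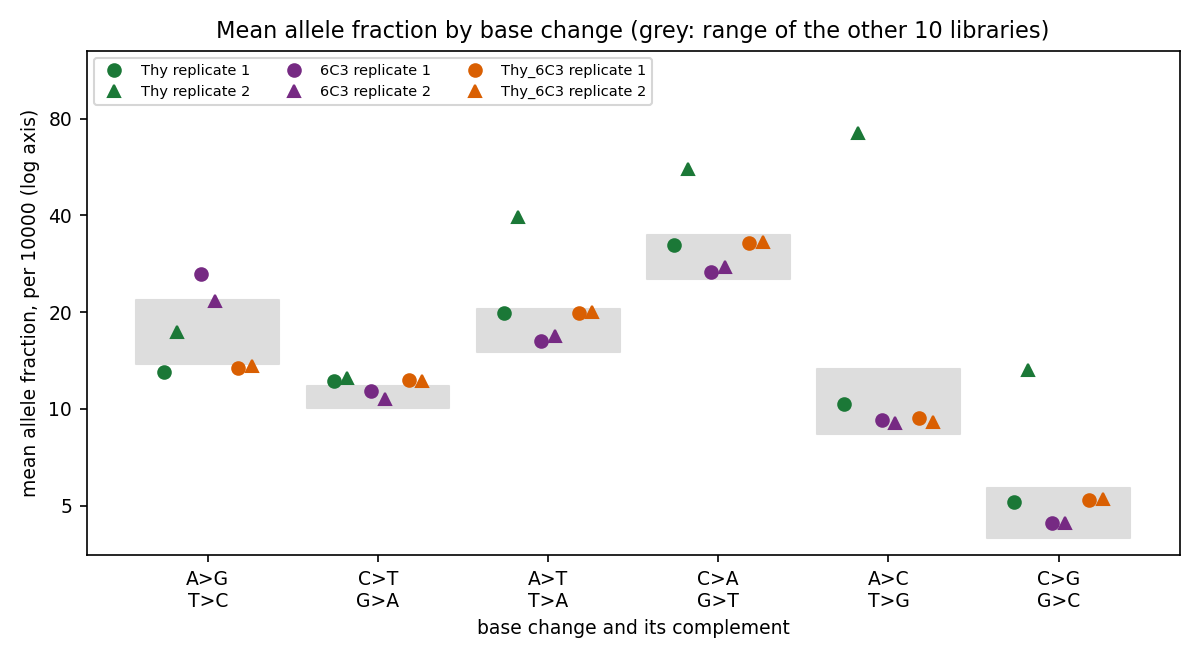
Mean allele fraction per 10000 (log axis) for each base change taken with its complement. Points are single libraries of Thy, 6C3 and Thy_6C3, circles for replicate 1 and triangles for replicate 2, and grey boxes span the other 10 libraries. For A>G and T>C the Thy_6C3 points, at 13.4 and 13.6, lie just below the box and below both 6C3 points, at 26.3 and 21.6. Thy replicate 2 stands highest in the 4 pairs of transversions.

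The lower A>G and T>C fractions of Thy_6C3 against 6C3 were spread over the whole mitochondrial genome. Of 10310 A and T positions, 80.6% had a lower fraction in Thy_6C3 than in 6C3 in replicate 1 and 75.8% in replicate 2. Against Thy these shares were 49.3% and 70.2%. In all 7 regions the order held in both replicates. Ribosomal RNA genes stood at 13.3 and 14.4 per 10000 in Thy_6C3 against 26.9 and 22.6 in 6C3, genes of complex I, the first enzyme of the respiratory chain, at 13.6 and 13.8 against 26.7 and 21.8, and the control region, which holds the heavy-strand origin and promoters, at 7.10 and 6.96 against 13.3 and 10.8. When positions were parted by the bases on either side, Thy_6C3 was below 6C3 in 32 of 32 contexts in both replicates, with 6C3 1.53 to 2.38 times higher in replicate 1 and 1.25 to 1.82 times in replicate 2. Against Thy, Thy_6C3 was lower in 12 of 32 contexts in replicate 1 and in 32 of 32 in replicate 2.

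**Figure D2:**
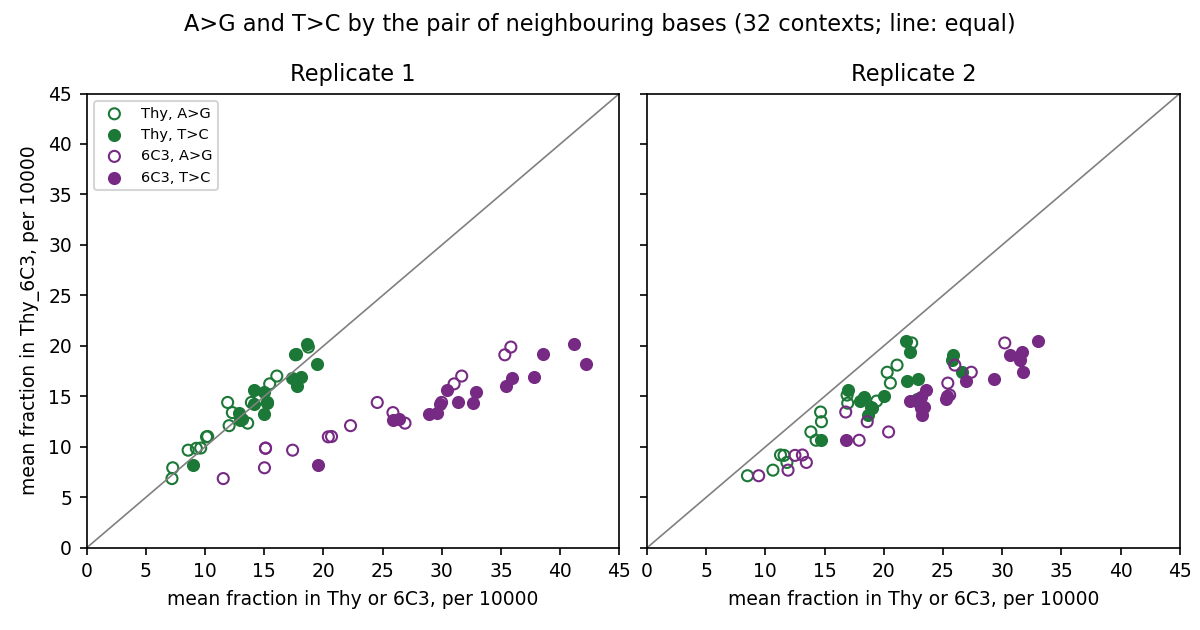
Mean fraction of A>G (open) and T>C (filled) in Thy_6C3 against that in Thy (green) or 6C3 (purple), per 10000, for each of the 32 combinations of change and neighbouring bases, by replicate. Every 6C3 point lies below the line of equal values in both panels, while the Thy points lie along it in replicate 1 and below it in replicate 2.

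The other changes had another order. C>T and G>A together stood at 12.3 and 12.2 per 10000 in Thy_6C3, above 6C3 at 11.4 and 10.7 and near Thy at 12.2 and 12.5. They were higher in Thy_6C3 than in all 5 other subsets of the same number, which ran from 10.1 to 11.8. C>A and G>T stood at 32.7 and 32.9 in Thy_6C3 against 26.6 and 27.6 in 6C3, and A>T and T>A at 19.8 and 20.0 against 16.3 and 16.8. In replicate 1, the fractions in Thy were 32.4 and 19.8 for these 2 pairs, near those of Thy_6C3, and in replicate 2 they were 55.5 and 39.5. Against the mean of Thy and 6C3, the lowest p over the 6 pairs was 0.444 (two-sided exact permutation test). That test cannot go below 0.111, so it could not have called any pair. Without Thy replicate 2, the difference from that mean turned from -3.20 to 2.47 for A>T and T>A and from -2.73 to 4.25 for C>A and G>T, so these 2 values rest on that library.

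Thy_6C3 held 142 alleles at 1% or more in replicate 1 and 266 in replicate 2. Without A>C and T>G the numbers were 129 and 247, against 128 and 352 in Thy and 130 and 103 in 6C3. In the other 10 libraries they ran from 82 to 380 (median 108), with 260 and 380 in CD24_CD29. The 3 libraries of replicate 1 compared here were thus alike in number, whereas Thy_6C3 replicate 2 had 144 more than 6C3. It exceeded its replicate 1 counterpart in C>T with 70 alleles against 33, in T>C with 43 against 22 and in A>T with 45 against 23. In replicate 2 Thy_6C3 had a lower median fraction than 6C3 for A>G and T>C (6.41 against 16.9 per 10000) and for C>T and G>A (2.09 against 5.26), together with more alleles at 1% or more in both pairs (74 against 52, and 85 against 23). After thinning to a common coverage Thy_6C3 had 130 and 247 alleles, Thy 128 and 345, and 6C3 143 and 106. The difference from the mean of Thy and 6C3, 9.75 alleles without A>C and T>G, had an exact permutation p of 0.889 (two-sided, adjusted p = 1). Without 6C3 replicate 2 it was -52.5, and at a threshold of 0.5% it was -1170.

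**Figure D3:**
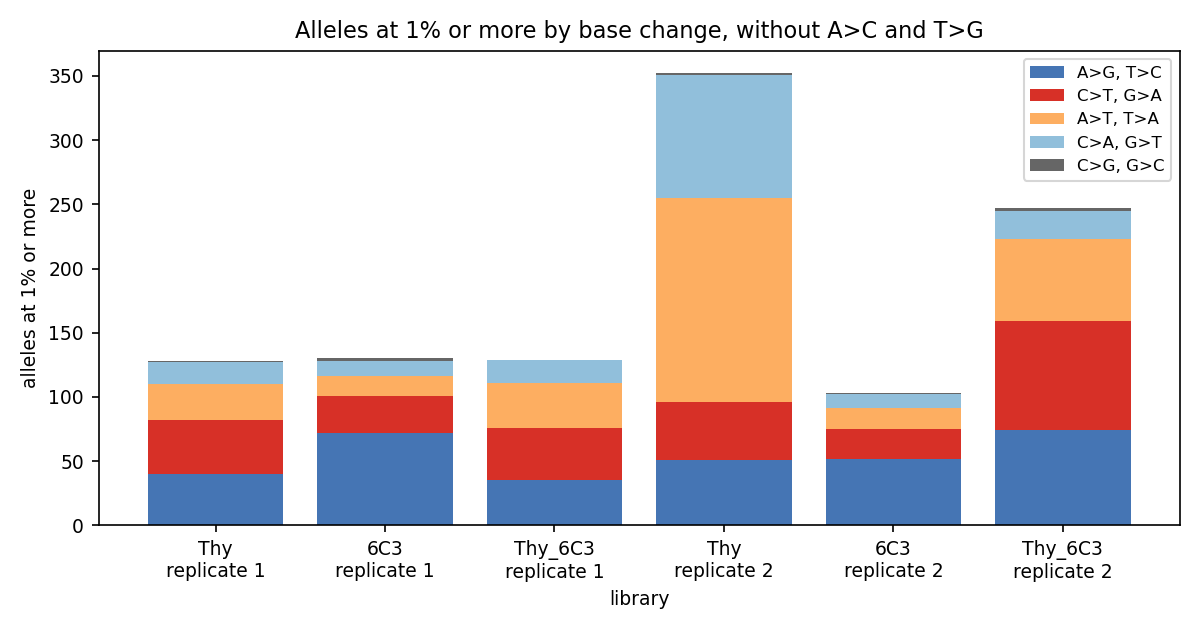
Number of alleles at 1% or more in each library, stacked by base change with its complement, without A>C and T>G. Thy_6C3 reaches 129 in replicate 1 and 247 in replicate 2, where Thy, at 352, consists mainly of A>T, T>A, C>A and G>T and 6C3 stops at 103.

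Transitions made up 58.9% and 64.4% of these alleles in Thy_6C3, below 6C3 at 77.7% and 72.8% in both replicates. In Thy the share was 64.1% and 27.3%. Thy_6C3 held more A>T alleles than 6C3, 23 and 45 against 4 and 6. Of those in Thy_6C3, 16 and 28 had C as the next base, although C follows only 22.5% of A positions, and 11 and 13 lay in the triplet TAC, which holds 6.04% of A positions. Thy had 14 A>T alleles in replicate 1, 13 of them before C, and 86 in replicate 2, 64 of them before C. In 6C3, 3 of 4 and 3 of 6 lay before C. The triplet TAC held 10 and 11 of the A>T alleles of Thy and 2 and 1 of those of 6C3. The motif was searched on the reference strand, and these shares are descriptions.

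In coding genes, 52 and 113 of the alleles present in Thy_6C3 without A>C and T>G were missense and 21 and 50 synonymous. Missense alleles thus made up 66.7% and 66.1% of coding alleles, below the 70.01% that they make up of all possible coding alleles of these changes. Per 1000 possible alleles, missense stood at 2.77 and 6.02 and synonymous at 3.20 and 7.63. In 6C3 the missense share was 59.7% and 71.0%, and in Thy 63.3% and 74.2%. New stop codons were created by 5 and 8 alleles in Thy_6C3, by 1 in each 6C3 library and by 6 and 15 in Thy, out of 1486 possible. Their shares of coding alleles were 6.41% and 4.68% in Thy_6C3, 1.30% and 1.61% in 6C3, and 7.59% and 7.73% in Thy. Stop alleles make up 5.54% of all possible coding alleles of these changes, so their share in Thy_6C3 was near that. The 2 stop alleles with the highest fractions, chosen after the values were seen, lie in ND3, a subunit of complex I. G9775A (W106*) stood at 2.56% in Thy_6C3 replicate 1 against 1.70% in Thy and 1.66% in 6C3, and G9526A (W23*) at 4.39% in Thy_6C3 replicate 2 against 3.43% and 3.19%. Both were therefore present in all 3 libraries of their number. The alleles of Thy_6C3 lay in complex I genes in 45 and 92 cases, which is 34.9% and 37.2% of them beside 38.8% of all possible alleles. Ribosomal RNA genes held 13.2% and 14.6% beside 15.5%, tRNA genes 10.1% and 7.69% beside 9.04%, and the control region 14.0% and 8.50% beside 5.38%. Per 1000 possible alleles the control region was the densest of the 7 regions in both Thy_6C3 libraries, at 8.67 and 10.1, as it was in both 6C3 libraries at 9.63 and 8.67.

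The alleles with the highest fractions were shared by all 3 subsets of a replicate number. In replicate 1, G3079A (ND1 S110N) stood at 16.4% in Thy_6C3, 15.6% in Thy and 16.2% in 6C3, and C10658T, a silent change in ND4, at 16.9%, 16.02% and 15.97%. In replicate 2 these 2 alleles were at 0.207% and 1.02% in Thy_6C3. C11959T (ND5 S73L) reached 18.4% in Thy_6C3 replicate 2, 20.99% in Thy and 24.9% in 6C3, but 0.246% in Thy_6C3 replicate 1. C1051T in TrnV stood at 13.7%, 15.8% and 16.5% in replicate 2 and at 0.106% in Thy_6C3 replicate 1. The largest alleles thus parted the replicate numbers and not the 3 subsets. C7166T (COX2 H52Y) was high in both numbers, at 8.76% and 6.02% in Thy_6C3.

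Without A>C and T>G, 58 alleles of replicate 1 and 65 of replicate 2 were present in Thy_6C3, Thy and 6C3 alike, with a median fraction in Thy_6C3 of 2.08% and 2.38%. Thy_6C3 shared 67 alleles with Thy in replicate 1, which is 51.9% of its own and 52.3% of those in Thy, and 65 with 6C3, which is 50.4% and 50.0%. In replicate 2 it shared 86 with Thy (34.8% of its own, 24.4% of Thy) and 71 with 6C3 (28.7% of its own, 68.9% of 6C3). As shares of the alleles of Thy_6C3, the overlaps with Thy and with 6C3 were thus close in replicate 1 and differed by a few points in replicate 2, where they were far apart as shares of the partner's own alleles. Alleles present in Thy alone among the 3 numbered 49 in replicate 1 and 255 in replicate 2, and those in 6C3 alone 53 and 21. Those in Thy_6C3 alone numbered 55 and 155, and 41 and 139 of these were present in no other subset of that number. Their median fractions were 1.14% and 1.22% and their highest 1.66% and 2.09%, so that most lay just above the threshold. In replicate 1 they were mainly A>T (19), C>T (12) and T>C (11), and in replicate 2 C>T (48), A>T (35), T>C (24) and A>G (20).

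The highest alleles present in Thy_6C3 and in neither Thy nor 6C3 were in protein genes of several complexes and in ribosomal RNA genes. C7913T, which replaces proline 50 of the ATP synthase subunit ATP8 by serine, stood at 2.09% in Thy_6C3 replicate 2 (95% exact interval 1.87 to 2.33) against 0.0491% in Thy and 0.0675% in 6C3. The other 5 subsets of replicate 2 had at most 0.170%, and Thy_6C3 replicate 1 had 0.00851%. C14584T (CYTB T147M), in the cytochrome b gene of complex III, stood at 1.94% against 0.391% and 0.157% in the same replicate. In replicate 1 the highest was T12069C (ND5 S110P), at 1.66% against 0.361% in Thy and 0.871% in 6C3. T12069C was also present in CD45 of that number, at 1.03%. C14248A (CYTB S35Y) followed, at 1.61% against 0.326% and 0.563%. Next came C14575T (CYTB T144M), at 1.52% against 0.618% and 0.207%, and A1676T in mt-Rnr2, at 1.48% against 0.407% and 0.384%. These 6 alleles were each at or below 0.509% in the Thy_6C3 library of the other number. Only A2648T, G3883A and A8514T were present in Thy_6C3 and in neither partner in both replicates.

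Without A>C and T>G, alleles present in Thy_6C3 and Thy but not 6C3 numbered 9 in replicate 1 and 21 in replicate 2. Those in Thy_6C3 and 6C3 but not Thy numbered 7 and 6. Alleles present in both Thy and 6C3 but not in Thy_6C3 numbered 12 and 11. Those with the largest deficit were still detected in Thy_6C3. In replicate 1, T13233C (ND5 F498L) stood at 0.222% in Thy_6C3 against 1.06% in Thy and 1.20% in 6C3, but in replicate 2 it was at 1.04% against 1.01% and 0.871%. A8125G (ATP6 T67A) stood at 0.527% in replicate 1 against 1.32% and 1.47%. In replicate 2, A4524G, which replaces asparagine 204 of the complex I subunit ND2 by serine, stood at 0.534% in Thy_6C3 against 1.18% in Thy, 2.18% in 6C3 and 1.42% to 2.08% in the other 5 subsets. In replicate 1 it was at 0.167% in Thy_6C3, above Thy at 0.142% and below 6C3 at 0.585%. The nearby A4549C, an A>C change and so outside the 11, is silent in ND2 and stood at 0.517% in Thy_6C3 against 2.88%, 2.24% and 1.19% to 2.44%. Both were thus lower in Thy_6C3 than in each of the other 7 subsets of replicate 2, and in replicate 1 A4549C was at or below 0.148% in all 3 libraries. A9110T (COX3 M168I), like T13233C, went in opposite directions, at 0.779% in Thy_6C3 replicate 1 against 1.73% and 1.27%, and at 2.995% in replicate 2 against 1.01% and 0.855%.

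Some alleles present in all 3 libraries stood higher in 1 Thy_6C3 library. G5171A, in the stretch between TrnN and TrnC that holds the light-strand origin of replication, was at 6.27% in Thy_6C3 replicate 1 (95% exact interval 5.94 to 6.63), against 3.03% in Thy, 3.35% in 6C3 and 1.31% to 4.61% in the other 5 subsets. In replicate 2 it was at 0.795% in Thy_6C3, below Thy at 0.998% and 6C3 at 0.974%. C10210T (ND4 T15I) was at 4.47% in Thy_6C3 replicate 2 against 2.199% in Thy, 1.78% in 6C3 and 2.45% to 3.31% in the other 5 subsets, and at 0.00415% in Thy_6C3 replicate 1, from a single count. Conversely, C7953T, which changes ATP8 (S63L) and is silent in the overlapping ATP6, was at 7.90% in Thy_6C3 replicate 1 against 12.8% and 10.98%. In replicate 2 it was higher in Thy_6C3, at 1.98% against 1.17% and 1.05%. The direction of these 2 displacements, G5171A and C7953T, was therefore not the same in both numbers.

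Across alleles, many single libraries differed beyond counting error. Of the 1285 tested alleles without A>C and T>G, those present in at least 1 of the 16 libraries, 576 (44.8%) differed between Thy_6C3 and Thy in replicate 1 and 974 (75.8%) in replicate 2 by a chi-square test of the 2 libraries (Benjamini-Hochberg adjusted, which compares libraries and not subsets). Against 6C3, 670 (52.1%) and 689 (53.6%) differed. With all changes, the tested alleles numbered 3487, and the shares were 19.6% and 91% against Thy and 21.8% and 22.3% against 6C3. Of the 485 A>G and T>C alleles, 319 were lower and 34 higher in Thy_6C3 than in 6C3 in replicate 1, and 250 lower and 84 higher in replicate 2. Thy_6C3 lay above both partners beyond counting error for 133 and 247 alleles and below both for 170 and 263. In both replicates alike, 21 alleles were above and 56 below, and 60 went in opposite directions. Of the 56 below, 34 were T>C and 17 A>G, whereas the 21 above held 8 A>T and 7 C>T. Many tested alleles were present only in Thy replicate 2 or in Thy_6C3 itself, and some only in 6C3, so these counts are read as descriptions.

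**Figure D4:**
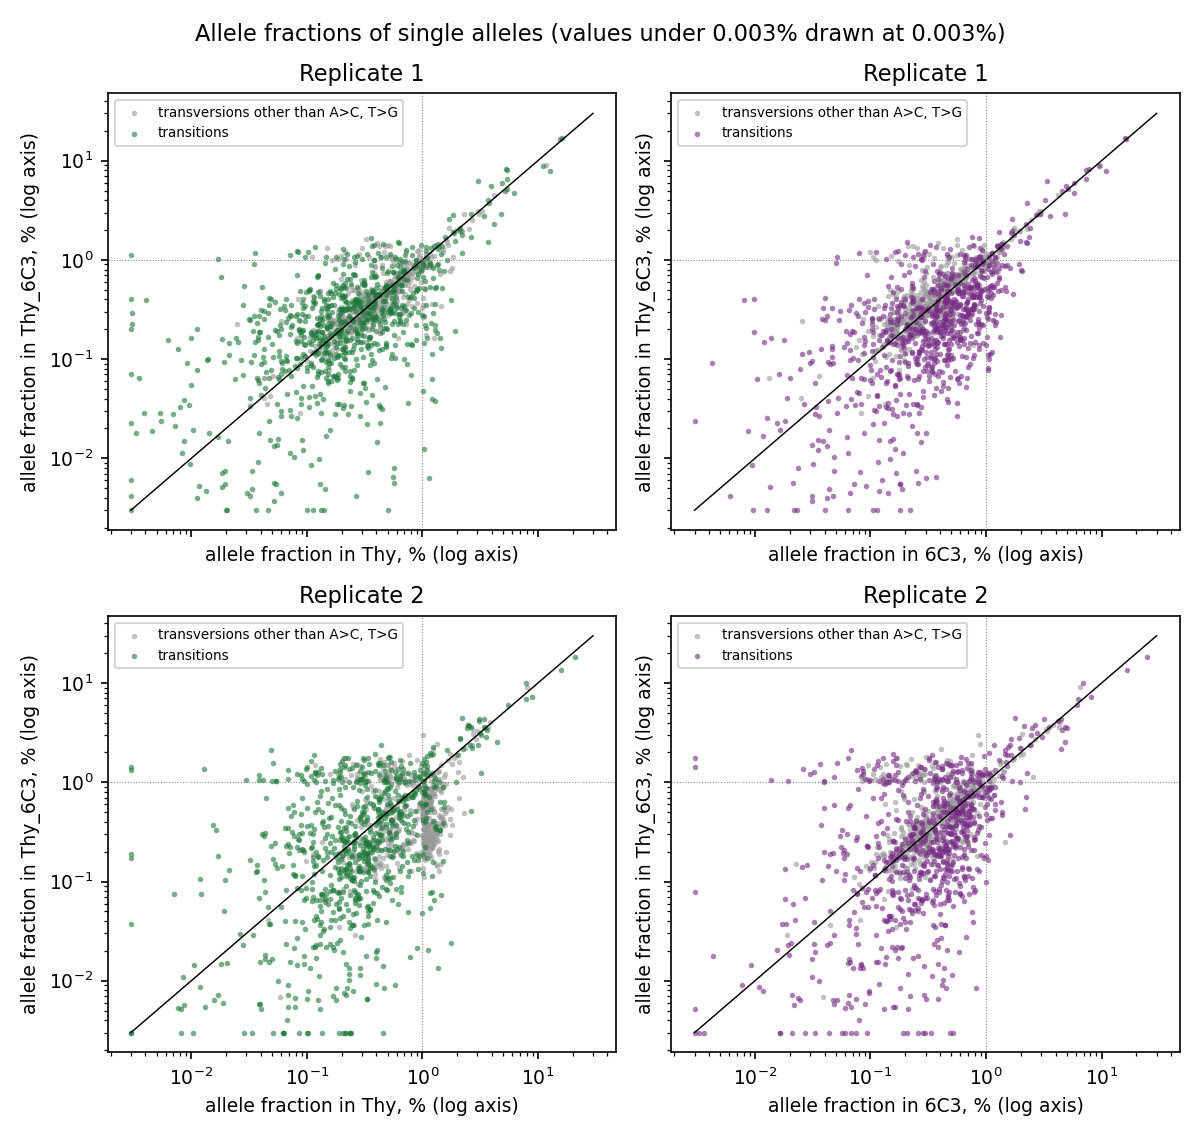
Allele fraction in Thy_6C3 against that in Thy (left) or 6C3 (right), in percent on log axes, for the 1285 tested alleles without A>C and T>G, replicate 1 above and replicate 2 below. The line marks equal values and dotted lines mark 1%. In replicate 2 the Thy_6C3 library has a band of alleles between 1% and 2% that are lower in both partners. Alleles were drawn if present in at least 1 of the 16 libraries, Thy_6C3 included, so the threshold itself places some alleles there.

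With replicate libraries and edgeR's quasi-likelihood test, no allele passed an adjusted p of 0.05 for Thy_6C3 against the mean of Thy and 6C3 (0 of 3487, 0%), against Thy (0 of 3487, 0%) or against 6C3 (0 of 3487, 0%). At an unadjusted p under 0.05 there were 128, 873 and 106 alleles. DESeq2 called 3, 11 and 1. Of the 106 against 6C3, 72 were A>G or T>C and all 72 were lower in Thy_6C3, out of 485 such alleles tested. Of these 485, 410 (84.5%) had a lower fitted fraction in Thy_6C3, with a median log2 odds ratio of -0.80, beside a median of -0.01 over all 3487 alleles. Against Thy the same 485 alleles had a median of -0.14, beside -1.41 over all alleles and -0.26 without A>C and T>G. Against 6C3 the median without A>C and T>G was -0.04. An allele could be among the 485 through a high fraction in 6C3 itself. Among alleles chosen on the other 10 libraries, 357 of 397 A>G and T>C alleles (89.9%) were lower in Thy_6C3 than in 6C3. Their median log2 odds ratio was -0.84, beside -0.31 over all 882 alleles of that set. The 873 against Thy were mostly A>C and T>G, which numbered 791, every one lower in Thy_6C3. Leaving out A>C and T>G gave 1 call against the mean and 1 against 6C3 (both 0.0778% of 1285) and 0 against Thy (0%).

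That 1 call was A13962G in ND6, a subunit of complex I encoded on the other strand, where it replaces phenylalanine 37 by leucine. Its fraction was 0.0264% in Thy_6C3 replicate 1 (6 of 22699 counts) and 0.0368% in replicate 2 (6 of 16312). Thy had 0.289% and 0.246%, and 6C3 0.562% and 0.444%. Both Thy_6C3 libraries lay below the 4 partner libraries and also below the other 10 libraries, which ran from 0.156% to 1.11%. The log2 odds ratio against the mean of Thy and 6C3 was -3.55 (SE 0.571, edgeR adjusted p = 0.0775 over 3487 alleles and 0.0166 over the 1285 without A>C and T>G). Over all alternatives tried the adjusted p ran from 6.34e-05 to 0.865, with the same direction in each. Against 6C3 it was -4.00 (SE 0.641, edgeR adjusted p = 0.0734) and against Thy -3.09 (SE 0.640, edgeR adjusted p = 0.180). The allele was below 1% in all 6 libraries, and the Thy_6C3 values rest on 6 counts each.

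The alleles next in line in edgeR were likewise at lower fractions in Thy_6C3, without passing the test. T10963C, which replaces leucine 266 of the complex I subunit ND4 by proline, was at 0.0399% in Thy_6C3 replicate 1 and at 0 of 14338 counts in replicate 2. Thy had 1.22% and 0.216% and 6C3 0.459% and 0.284% (edgeR log2 odds ratio against the mean -4.50, SE 1.07, adjusted p = 0.575). A1085G in TrnV was at 0.172% and 0.0969% in Thy_6C3, against 0.310% and 0.525% in Thy and 0.736% and 0.583% in 6C3. T9968C (ND4L L31P) was at 0.0674% and 0.0580% against 0.181% and 0.280% in Thy and 0.610% and 0.352% in 6C3. For neither did edgeR pass against 6C3 (adjusted p = 0.9998 for both). For all 3 of these alleles, both Thy_6C3 libraries lay below all 4 partner libraries. They were picked for a small p in these same libraries, so this is a description. The other 10 libraries fell to 0.0817% for T10963C, 0.106% for A1085G and 0.0721% for T9968C. For A1085G that is below Thy_6C3 replicate 1.

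The alleles with the smallest p against Thy were high in Thy rather than low in Thy_6C3. A5202C and T5201G are neighbouring bases in the cysteine tRNA gene TrnC. A5202C was at 0.0972% and 0.132% in Thy_6C3, 0.130% and 0.289% in 6C3, and 3.07% and 3.46% in Thy. T5201G was at 0.0390% and 0.0840% in Thy_6C3, 0.0295% and 0.0662% in 6C3, and 0.910% and 1.45% in Thy. A5277C in the tyrosine tRNA gene TrnY was at 0.00539% and 0.0157% in Thy_6C3, at most 0.0275% in 6C3, and 2.60% and 0.327% in Thy. Each had an edgeR adjusted p of 0.180 against Thy, with log2 odds ratios of -4.89, -4.33 and -6.54. These are A>C and T>G changes, and for each Thy_6C3 stood with 6C3. Unlike the genome-wide rise, A5202C and T5201G were high in both Thy libraries. A5277C was not, since its 0.327% in Thy replicate 2 lay below that library's mean A>C fraction of 76.5 per 10000. In replicate 2, A5202C also reached 0.868% in CD45 and 0.940% in CD29.

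In the opposite direction, C1667T in mt-Rnr2 was at 0.405% (95% exact interval 0.323 to 0.5001) in Thy_6C3 replicate 1 and at 1.001% (0.841 to 1.18) in replicate 2. It was at 0 of 27276 counts and 0.203% in Thy, at 0.00979% and 0.0399% in 6C3, and at most 0.124% in the other 10 libraries. Both Thy_6C3 libraries were thus above the other 14 (edgeR log2 odds ratio against the mean 4.26, SE 1.28, adjusted p = 0.575). G3883A in TrnM was at 1.15% and 1.38% in Thy_6C3, against 0.520% and 0.248% in Thy, 0.596% and 0.680% in 6C3, and at most 0.908% in the other 10 libraries. C9010T, which replaces serine 135 of the complex IV subunit COX3 by leucine, was at 0.589% and 1.02% against 0.214% and 0.265% in Thy and 0.228% and 0.142% in 6C3, and the other 10 libraries reached 0.750%. A8520T, silent in ATP6, was at 0.883% and 0.912% against at most 0.359% in Thy and 0.521% in 6C3, and the other 10 libraries reached 1.13%, above both Thy_6C3 libraries. The fifth, T2627C in mt-Rnr2, was at 0.918% and 1.85% against 0.0351% and 1.10% in Thy and 0.182% and 0.968% in 6C3, with up to 1.07% in the other 10 libraries. For these 3 alleles and G3883A, edgeR gave an adjusted p of 0.575 against the mean.

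Among alleles below both partners in both replicates, T6448C (COX1 V374A) was at 0.138% and 0.0874% in Thy_6C3, against 0.484% and 0.659% in Thy and 0.992% and 0.770% in 6C3. T495C in the small ribosomal RNA gene mt-Rnr1 was at 0.227% and 0.0202% in Thy_6C3, and Thy and 6C3 ranged from 0.457% to 1.12%. T4923C (ND2 L337P) was at 0.103% and 0.222% against 0.467% to 1.04%. A12017G, silent in ND5, was at 0.466% and 0.393% against 0.697% to 1.11%, and T11943C (ND5 W68R) at 1.14% and 0.889% against 1.19% to 1.44%. In all 5, Thy_6C3 did not overlap Thy and 6C3 within a replicate number. Among the other 5 subsets, however, some were lower than Thy_6C3. T6448C fell to 0.115% and 0.0424% there, T4923C to 0.0506% and 0%, T11943C to 1.005% and 0.772%, and T495C to 0.130% in replicate 1. Only A12017G in both replicates and T495C in replicate 2 were lower in Thy_6C3 than in all of them. These alleles, like those above both, were picked for their direction in these libraries, so that direction is a description.

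**Figure D5:**
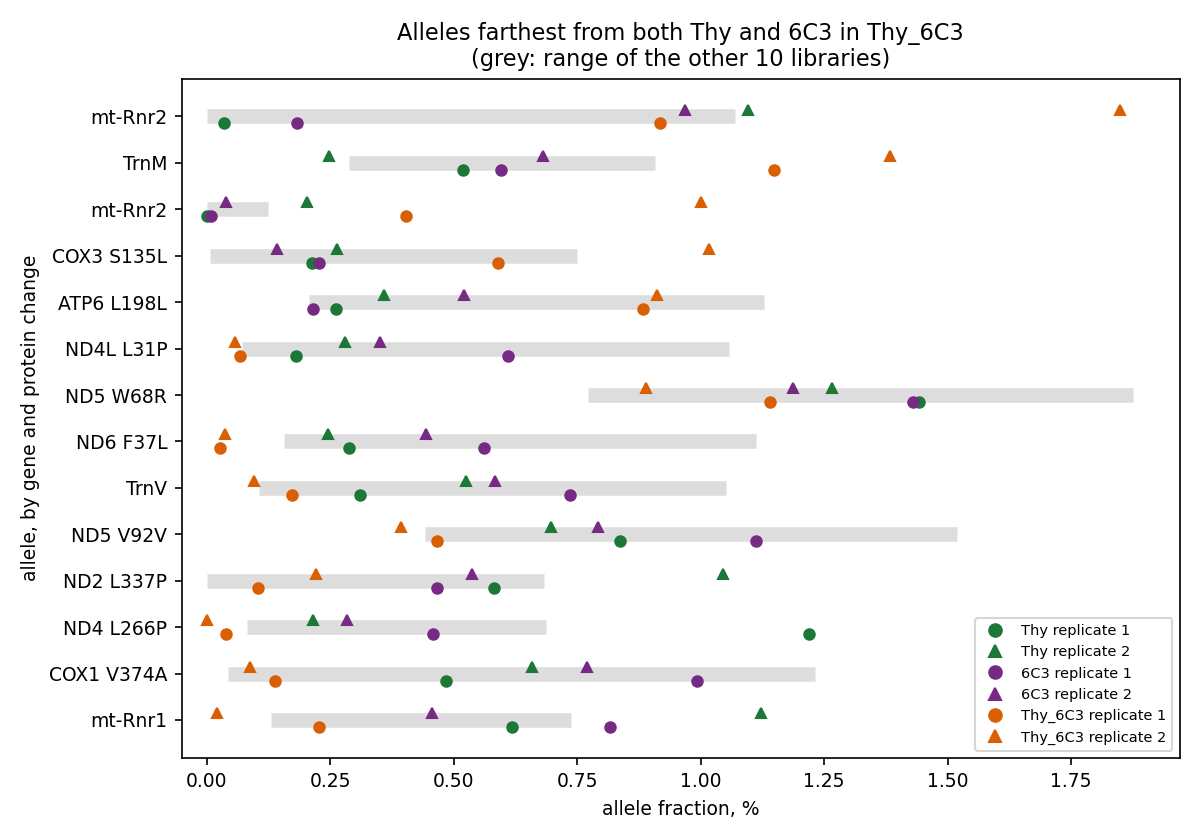
Allele fraction in percent of the alleles farthest from both partners in the same direction in both replicates and of those with the smallest edgeR p against the mean or 6C3, named by gene and protein change. Grey bars span the other 10 libraries. In mt-Rnr2 (0.405% and 1.001%) and TrnM (1.15% and 1.38%) both Thy_6C3 points lie above their bars, and in ND6 F37L (0.0264% and 0.0368%) below it.

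The distance between libraries over alleles was the root mean square difference of arcsine square root fractions. Without A>C and T>G that of Thy_6C3 was 0.0247 and 0.0366 from Thy, 0.0239 and 0.0315 from 6C3, and 0.0235 and 0.0279 between Thy and 6C3. Here the 2 distances of Thy_6C3 were larger than that between its partners, by little in replicate 1, but the tested alleles include some that are present only in Thy_6C3. Over the 882 alleles chosen on the other 10 libraries, the distances in replicate 1 were 0.0219 from Thy, 0.0225 from 6C3 and 0.0227 between the partners, so the order turned, and in replicate 2 they were 0.0293, 0.0255 and 0.0233. With all changes the distance from Thy in replicate 2 was 0.0631, against 0.0200 from 6C3 and 0.0609 between Thy and 6C3. Transitions alone gave 0.0281 and 0.0356 from Thy, 0.0273 and 0.0347 from 6C3, and 0.0274 and 0.0220 between Thy and 6C3. Ranks among the 3 were counted over alleles chosen on the other 5 subsets of a number, without A>C and T>G. In replicate 1, Thy_6C3 was the highest for 97 of 352 and the lowest for 118. Thy was the highest for 89 and the lowest for 143 there, and 6C3 for 166 and 91. In replicate 2, Thy_6C3 was the highest for 131 of 540 and the lowest for 264. There Thy was the highest for 207 and the lowest for 138, and 6C3 for 202 and 138.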

How the data were processed

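The deposited tables give, per the file headers, whole-number counts for each library: coverage at 16299 mitochondrial positions and, for every other base there, its count (48897 alleles), not normalized by the authors. The submitters' processing notes name bcl2fastq 2.20, cutadapt 2.10, BWA 0.7.17 and the builds GRCm38 and mm10. How bases were filtered, duplicates removed and nuclear copies treated is not given in the sources used here, and each can change a low fraction. Intervals are exact (Clopper-Pearson) and, like limits for a count of 0, cover counting error only. Genes came from RefSeq (GRCm38.p6), protein changes from the vertebrate mitochondrial code, and sequences from the reference bases in the deposited tables.

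Alleles were tested with edgeR 4.0.16 (quasi-likelihood, R 4.3.3) on paired non-reference and reference counts of all 16 libraries, with a term per library and, for non-reference counts, terms for subset and replicate number (7 residual degrees of freedom, Benjamini-Hochberg over 3487 alleles). DESeq2 1.42.0 was an alternative. The model was tested on simulated data. Replicate numbers entered as a block because libraries were compared within them: deviations of same-numbered libraries from their subset means correlated at 0.386 to 0.706 over the 3 pairs of subsets. The rule for named alleles took, per contrast, up to 5 alleles that passed or else the 3 with the smallest p. Per replicate number or direction, it took up to 5 that were highest, missing from Thy_6C3, or farthest from both partners. It also took, per replicate number, up to 5 present in Thy_6C3 but in neither partner. Not all of them are described. The libraries, lists and measures were chosen with earlier results of these data known. Python 3.11.15 with scipy 1.17.1 was used for the rest.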

Additional observations from a re-analysis of the deposited data

How the results depend on the processing

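With no replicate block edgeR called 0 alleles in each of the 3 contrasts, and the log2 odds ratio of A13962G against the mean of Thy and 6C3 was -3.54 (edgeR adjusted p = 0.152), so removing the block changed no call. Against the mean of Thy and 6C3, the count of 0 became 3 with DESeq2, 1 with alleles chosen on the other 10 libraries, 1 without A>C and T>G, and 0 to 2295 with 1 library left out. The 2295 arose without Thy replicate 1, where Thy rests on replicate 2 alone, and 2110 of them were A>C or T>G. Against Thy it became 11 with DESeq2, 1 with counts divided by 10, and 0 to 2388 with 1 library left out, again highest without Thy replicate 1. Against 6C3 it became 1 with DESeq2, 1 with a quasi-binomial model, 1 with alleles chosen on the other 10 libraries, 1 without A>C and T>G, and 0 to 2 with 1 library left out, A13962G being called without Thy replicate 1, and A13962G and A1085G without Thy replicate 2. Fits on the 6 libraries alone had 2 residual degrees of freedom and called 0. The difference from the mean of both partners in alleles at 1% or more, -531.5, ran from -1134.25 without 6C3 replicate 2 to 71.25 without Thy replicate 2. Without A>C and T>G, 9.75 ran from -52.5 without 6C3 replicate 2 to 72 without Thy replicate 2, and was -1170.25 at a threshold of 0.5%. The difference in transition share, 1.18 percentage points, ran from -12.0 without Thy_6C3 replicate 2 to 14.3 without Thy_6C3 replicate 1, with -2.22 and -10.2 without Thy replicate 1 and 2, and was -5.17 at a threshold of 0.5% and -0.291 at 2%. With 1 library left out, differences in mean fraction per 10000 ran from -8.86 to 2.47 for A>T and T>A, -9.71 to 4.25 for C>A and G>T, and -3.80 to 0.613 for C>G and G>C, lowest without 6C3 replicate 2 and highest without Thy replicate 2. The mean distance of Thy_6C3 from 6C3 rose from 0.0176 to 0.0277 without A>C and T>G, 0.0240 with alleles chosen on the other 10 libraries and 0.0310 for transitions alone. Apart from leaving out a library, the cause of each change was not tested. The transitions-alone and mean-fraction settings were chosen after seeing the data. Depth limits fractions under about 0.02%, and Thy_6C3 had the lowest coverage of the 3 subsets.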
